A study of Mus musculus with 2 samples.

Results

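Lactate leaves and enters cells through monocarboxylate transporters of the SLC16 family, which move 1 proton with each lactate, and glucose enters through facilitative transporters of the SLC2 family. In these data 8 genes of that traffic, chosen by name, were read from the 31053 genes counted. They are Slc16a8 (MCT3), Slc16a1 (MCT1) and Slc16a3 (MCT4), the chaperone Bsg (basigin), the lactate dehydrogenase subunits Ldha and Ldhb, and the glucose transporters Slc2a1 (GLUT1) and Slc2a3 (GLUT3). The retinal pigment epithelium (RPE), the pigmented sheet behind the retina, carries glucose from the choroid to the retina through GLUT1 on both faces and carries retinal lactate away, with MCT1 facing the retina and MCT3 facing the choroid. MCT1, MCT3 and MCT4 need basigin to reach the cell surface, and MCT3 is known chiefly from the RPE and the choroid plexus.

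Single cells of mouse eye cups at e13.5 (day of embryonic development) were compared between control Myrf fl/fl embryos and mutant Rx>cre Myrf fl/fl embryos. Both groups carry floxed alleles of Myrf, a membrane-bound transcription factor, and only the mutants carry the Rx>cre transgene, which deletes Myrf in the early eye field and therefore in RPE and neural retina alike. Each genotype is 1 library made from 3 pooled samples with cornea, lens and optic nerve removed. With 1 library per genotype there was no replicate error and no test. Levels are unique molecular identifiers (UMIs) summed over the cells of a class, given as counts per 1000000 UMIs of that class (CPM). Brackets hold 95% intervals that cover counting error only (exact Poisson for levels, exact Clopper-Pearson for shares, exact conditional binomial for log2 ratios). The control library held 6039 barcodes and 63483835 UMIs, and the mutant library 6754 barcodes and 75228861 UMIs. After filtering, 5468 control cells (median 11332 UMIs) and 6300 mutant cells (median 11154) were clustered without the 8 genes.

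Cells fell into 13 classes named from marker genes, with 716 control and 599 mutant cells left unnamed. The RPE-like class held 258 control and 152 mutant cells with 2082730 and 1493448 UMIs, and all 9 RPE markers were detected in it in both libraries, 7 of them at a higher level than in any other class. The libraries shared 72 barcodes, 67 of them among kept cells. Of the kept pairs, 58 were unnamed in both libraries with close to equal totals (median ratio of control to mutant UMIs 1.06), and 1 control cell and 0 mutant cells of the RPE-like class were among the 67. In RPE-like cells Myrf stood at 74.4 CPM in the control and 20.1 CPM in the mutant (log2 ratio -1.85, -2.50 to -1.32), and Tmem98, whose protein binds MYRF, at 131 and 61.6 CPM (log2 ratio -1.08, -1.45 to -0.74). The sources used here do not say whether the 3′ tags of Myrf lie inside the deleted part, so the Myrf level checks the labels only in part.

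The promoters are shown first, since the genes differed in where they were expressed. RefSeq windows of 300 bases on GRCm38.p6, from 250 bases before to 50 after each start, were available for 6 of the 8 genes. The windows of Slc16a8, which was almost confined to RPE-like cells, and of Ldha and Slc16a3, which were broadly expressed, are printed 5′ to 3′ on the gene's strand. Capitals mark a match on either strand to ACGTG (core of the hypoxia-inducible factor motif), to CACGTG (an E-box bound by MITF that contains the hypoxia core), to CATGTG (another E-box of MITF), to TAATCC (the letters of OTX2), to CTGGCAC (the first of the MYRF motifs), to CTGGTAC (the other one) or to ACAAAG (that of SOX factors).
Slc16a8, chr15:79254699-79254998, minus strand: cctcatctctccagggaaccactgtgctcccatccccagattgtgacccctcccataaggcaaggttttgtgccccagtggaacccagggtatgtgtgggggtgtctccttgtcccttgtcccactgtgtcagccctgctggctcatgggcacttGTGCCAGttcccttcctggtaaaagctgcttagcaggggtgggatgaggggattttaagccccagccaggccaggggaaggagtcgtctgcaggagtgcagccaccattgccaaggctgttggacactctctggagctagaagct
Slc16a3, chr11:120948817-120949116, plus strand: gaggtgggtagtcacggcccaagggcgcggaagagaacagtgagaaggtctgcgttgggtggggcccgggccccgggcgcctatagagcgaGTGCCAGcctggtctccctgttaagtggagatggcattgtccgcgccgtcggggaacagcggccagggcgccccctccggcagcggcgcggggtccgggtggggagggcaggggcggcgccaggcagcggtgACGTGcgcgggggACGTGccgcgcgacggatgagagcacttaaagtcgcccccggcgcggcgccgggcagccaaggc
Ldha, first of 2 starts, chr7:46845554-46845853, plus strand: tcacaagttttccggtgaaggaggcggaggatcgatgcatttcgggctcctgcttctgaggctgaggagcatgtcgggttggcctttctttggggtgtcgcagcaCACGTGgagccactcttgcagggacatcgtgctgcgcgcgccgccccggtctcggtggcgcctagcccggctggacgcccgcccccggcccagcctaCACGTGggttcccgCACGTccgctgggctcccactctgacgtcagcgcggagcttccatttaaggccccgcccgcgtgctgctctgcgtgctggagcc

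The Slc16a8 window held 1 match, a CTGGCAC on the opposite strand that begins at base 156 of the window, a motif found in 5.01% of the 32851 promoters. It held none of the other motifs. The first Ldha window held ACGTG at 5 positions, counting both strands, within which lay 2 matches of the first E-box, and the Slc16a3 window held 2 hypoxia cores and 1 match of the first MYRF motif. The hypoxia core occurs in 19.6% of all promoters, the first E-box in 7.15% and the other in 14.2%, the OTX2 letters in 7.06%, the second MYRF motif in 2.24% and the SOX letters in 18.7%. Of the other windows, that of Slc16a1 (chr3:104638414-104638713) held 3 hypoxia cores, 1 E-box that overlaps 2 of them and 1 SOX match, that of Slc2a1 (chr4:119108495-119108794) held 1 hypoxia core, that of Ldhb (chr6:142507908-142508207) held no match, and the second Ldha window (chr7:46846832-46847131) held 1 OTX2 match and 1 match of the first MYRF motif. These are matches of letters, not measured sites.

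Slc16a8 was the member tied most closely to 1 class. The gene, on the minus strand of chromosome 15 (79251014 to 79254761 in GENCODE on GRCm38), encodes the proton-coupled lactate exporter of the RPE. In control cells 185 of its 194 UMIs in named classes (95.4%) came from RPE-like cells, which were 5.43% of the named cells. Its level in control RPE-like cells was 88.8 CPM (76.5 to 103). Melanocyte-like cells, the other pigmented class, came next at 1.18 CPM (0.0299 to 6.58) from 1 UMI. No UMI was found in 8 of the 13 control classes, among them retinal ganglion-like cells, where the limit that a count of 0 allows (3 counts) was 1.11 CPM. The 12 other classes together held 9 UMIs in 4494 control cells and 6 UMIs in 5549 mutant cells.

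In mutant RPE-like cells Slc16a8 stood at 14.1 CPM (8.70 to 21.5), from 21 UMIs against 185 in the control. The log2 ratio of mutant to control was -2.60 (-3.39 to -2.005), or 6.06-fold lower, and the intervals of the levels did not overlap. Sorted from the lowest ratio, Slc16a8 was number 4 of the 6909 genes with at least 50 UMIs in RPE-like cells, after Ermn, Igfbpl1 and Stmn2, and Myrf itself was number 14. Igfbpl1 and Stmn2 were also among the top 10 genes of a retinal ganglion-like cluster. The share of RPE-like cells with a Slc16a8 UMI was 25.2% in the control (20.02 to 31.0) and 7.24% in the mutant (3.67 to 12.6), at median depths of 3377 and 4057 UMIs. As a background, in red blood cell-like cells 0 of 208 control cells had one (a count of 0 allows up to 1.44%) and 0 of 488 mutant cells (up to 0.615%), at median depths of 22477 and 22724 UMIs. After every cell was thinned to 3000 UMIs, which left out 126 control and 72 mutant cells, the shares were 23.5% (16.5 to 31.6) and 2.50% (0.304 to 8.74). Single cells held up to 14 Slc16a8 UMIs in the control and up to 5 in the mutant, and 10 control cells against 1 mutant cell held 5 or more.

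Within the RPE-like class Slc16a8 was unevenly spread. At a finer clustering the class divided into a deep subcluster (control median 15396 UMIs) and a shallow one (1088 UMIs). The deep one made up 43.4% of the control class and 42.1% of the mutant class, and it held 179 of the 185 control and all 21 mutant Slc16a8 UMIs. In it the level was 108 CPM in the control and 18.2 CPM in the mutant (log2 ratio -2.51, -3.30 to -1.91). In the shallow subcluster it was 14.0 and 0 CPM, and among its cells with 3000 UMIs or more it was still only 6.97 CPM in the control (2 UMIs in 23 cells). By cell cycle phase, cells scored G1 stood at 103 CPM in the control and 18.3 CPM in the mutant, those in S at 11.7 and 12.5 CPM from 1 and 2 UMIs, and those in G2/M at 4.67 and 0 CPM from 1 and 0 UMIs. Cells scored G1 were 77.1% of the control and 65.1% of the mutant class, and they were deeper (control median 8980 UMIs) than those in S (1042 UMIs). Mki67, a marker of cycling cells, was 8.46 CPM in the control and 26.9 CPM in the mutant deep subcluster (log2 ratio 1.62, 0.72 to 2.69).

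The Slc16a8 ratio differed with the mitochondrial content of the cells. In RPE-like cells with over 5% mitochondrial UMIs the level was 111 CPM in the control and 11.2 CPM in the mutant (log2 ratio -3.15, -4.54 to -2.30). In those with 5% or less it was 29.9 and 16.7 CPM, from 17 and 13 UMIs, and the interval of the log2 ratio held 0 (-0.82, -2.01 to 0.29). The control median depth was 12106 UMIs over 5% and 1286 UMIs at 5% or less. Among cells with 3000 UMIs or more, those with 5% or less stood at 31.1 and 18.2 CPM (-0.76, -1.97 to 0.40). Those over 5% at that depth stood at 113 and 11.6 CPM (-3.12, -4.52 to -2.27). Cells over 5% were 57.8% of the control and 43.4% of the mutant RPE-like cells and held 90.8% and 38.1% of the Slc16a8 UMIs. Myrf was lower in the mutant in both sets, with a log2 ratio of -2.08 (-3.36 to -1.12) at 5% or less and -1.47 (-2.29 to -0.83) above it. By embryo sex, read from Xist and Y-linked UMIs, the log2 ratio was -3.61 in female cells (46 control UMIs against 1 mutant UMI) and -2.49 in male cells (98 against 14). Only 45 control and 15 mutant cells were read as female and 64 and 45 as male, and the rest of the class was given no sex. The 9 markers of the RPE itself, led by Pmel, summed to 13477 CPM in control and 9505 CPM in mutant RPE-like cells, with unequal ratios. Ttr, the transthyretin gene, stood at 2442 and 769 CPM (log2 ratio -1.67, -1.76 to -1.57), and Rlbp1, which encodes a retinoid-binding protein, at 485 and 280 CPM (-0.79, -0.96 to -0.63), while Mitf was at 174 and 154 CPM (-0.18, -0.42 to 0.06) and Trpm1, a cation channel gene, at 1327 and 1407 CPM (0.08, 0.00 to 0.17). The rest of the RPE list was lower with intervals below 0, at -0.85 for Rdh5, -0.50 for Slc45a2, -0.47 for Dct, -0.41 for Tyrp1 and -0.35 for Pmel. Other cell types' markers differed between libraries too. The 10 retinal ganglion markers, led by Stmn2, summed to 202 CPM in the control (10 of 10 detected) and 40.2 CPM in the mutant (9 of 10, Sncg at 0). The 8 neurogenic precursor markers, led by Atoh7, summed to 278 and 544 CPM with all 8 detected in both. The 6 melanocyte markers not shared with the RPE list, led by Mlana, summed to 656 and 566 CPM with Pax3 at 0 in both libraries and Sox10 at 0 in the mutant. The 10 retinal progenitor markers, led by Sfrp2, summed to 991 and 739 CPM with all 10 detected in both, and the 9 red blood cell markers, led by Hbb-y, to 1008 and 1381 CPM with 8 of 9 detected in both. The part of these markers, of depth and of cell cycle phase in the ratios was not tested.

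**Figure D1:**
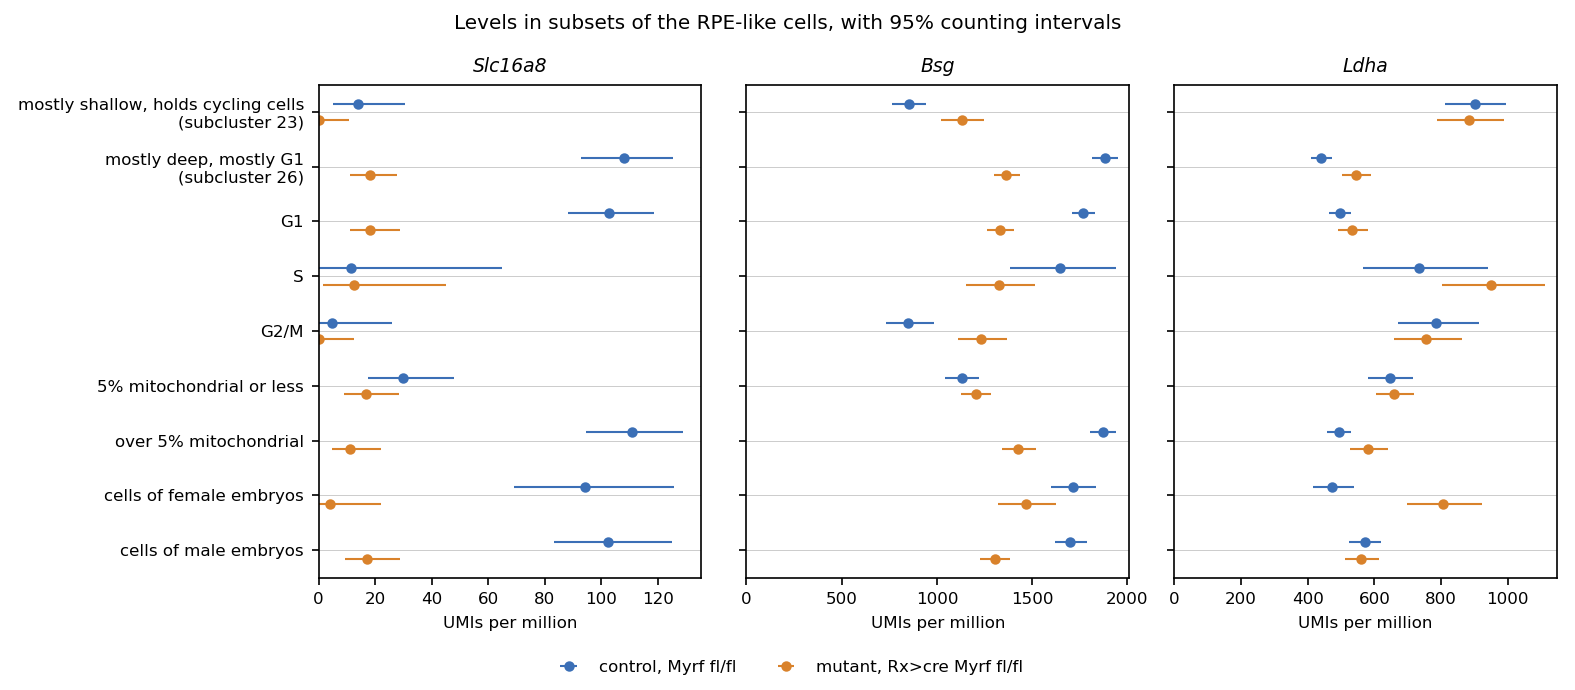
Levels of Slc16a8, Bsg and Ldha in subsets of the RPE-like cells, in CPM on linear axes, for the control (blue) and the mutant (orange) library; points are levels and lines 95% counting intervals. Control Slc16a8 sits at 108 CPM in the deep subcluster and at 14.0 CPM in the shallow one, and the mutant points lie below 20 CPM in every subset.

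Slc16a1 (chromosome 3, 104638668 to 104658462), the widely used MCT1, was low everywhere. It was 16.1 CPM in retinal progenitor-like cells of both libraries (14.4 to 18.0 in each, 312 and 308 UMIs), and it was 13.2 and 18.9 CPM in the small extraocular muscle-like class. It lay at 10.3 and 8.47 CPM in periocular mesenchyme-like cells and at 1.18 and 1.27 CPM in red blood cell-like cells. Most UMIs of that class were globin. With mitochondrial, haemoglobin and ribosomal protein genes left out of the totals its Slc16a1 levels were 11.04 and 10.1, and control RPE-like cells stood at 10.6. On that scale the larger red blood cell-like cluster stood at 5.66 and 5.67 and the smaller at 30.1 and 30.3, on few UMIs. In the order of classes all 12 neighbouring pairs had overlapping intervals in either library. RPE-like cells held 16 control UMIs (7.68 CPM, 4.39 to 12.5) and 21 mutant UMIs (14.1 CPM, 8.70 to 21.5), too few for the 50 UMI minimum, and the interval of the log2 ratio held 0 (0.85, -0.14 to 1.91). In the deep subcluster the counts were 7 and 15 UMIs and the ratio was 1.52 (0.24 to 3.16). In retinal progenitor-like cells Slc16a1 was 12.7 CPM in G1 and 18.2 CPM in S in the control, and 11.1 and 19.7 CPM in the mutant.

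Slc16a3 (chromosome 11, 120948480 to 120960868), the low-affinity exporter MCT4 of glycolytic cells, had its highest class levels in ganglion-like and macrophage or microglia-like cells. Retinal ganglion-like cells stood at 73.2 CPM in the control (63.3 to 84.1) and 57.3 CPM in the mutant (49.4 to 66.0), and macrophage or microglia-like cells at 54.8 (44.5 to 66.7) and 73.2 CPM (61.1 to 86.9). These top 2 classes changed places between libraries, and their intervals overlapped in each. Most of the ganglion-like UMIs came from 1 of its 2 clusters. The deep cluster (125 control and 156 mutant cells) stood at 87.5 and 65.7 CPM and held 189 of the 198 control and 168 of the 191 mutant UMIs, and the larger, shallow one (202 and 296 cells, control median 1589 UMIs) stood at 16.5 and 29.6 CPM. Progenitor-like cells were at 29.7 and 36.8 CPM and neurogenic precursor-like cells at 45.6 and 55.6 CPM, so that the deep ganglion-like cluster lay above the precursor-like class and the shallow one below it in both libraries, with overlapping intervals for the deep cluster in the mutant. In RPE-like cells Slc16a3 was 16.3 CPM (11.3 to 22.8) and 13.4 CPM (8.18 to 20.7), with a log2 ratio of -0.26 (-1.16 to 0.55). The ratio turned with the cells taken, at -1.28 (-3.05 to -0.05) in male cells and -1.22 (-2.95 to -0.08) in cells scored G1, but 1.40 (-0.08 to 3.09) in female cells, on 7 and 10 UMIs.

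The share of each transporter among the UMIs of the 3 genes set RPE-like cells apart from the other classes. Since 3′ tags count molecules, these shares were not divided by gene length, though capture may differ between genes. In control RPE-like cells Slc16a8 held 78.7% of 235 UMIs (72.9 to 83.8), Slc16a3 14.5% and Slc16a1 6.81%. In mutant RPE-like cells 62 UMIs divided into 33.9% Slc16a8 (22.3 to 47.0), 32.3% Slc16a3 and 33.9% Slc16a1. Slc16a3 held 95.2% in control and 95.5% in mutant ganglion-like cells and 88.3% and 89.7% in macrophage or microglia-like cells, while in progenitor-like cells Slc16a1 held 35.0% (31.9 to 38.3) and 30.4% (27.6 to 33.4).

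**Figure D2:**
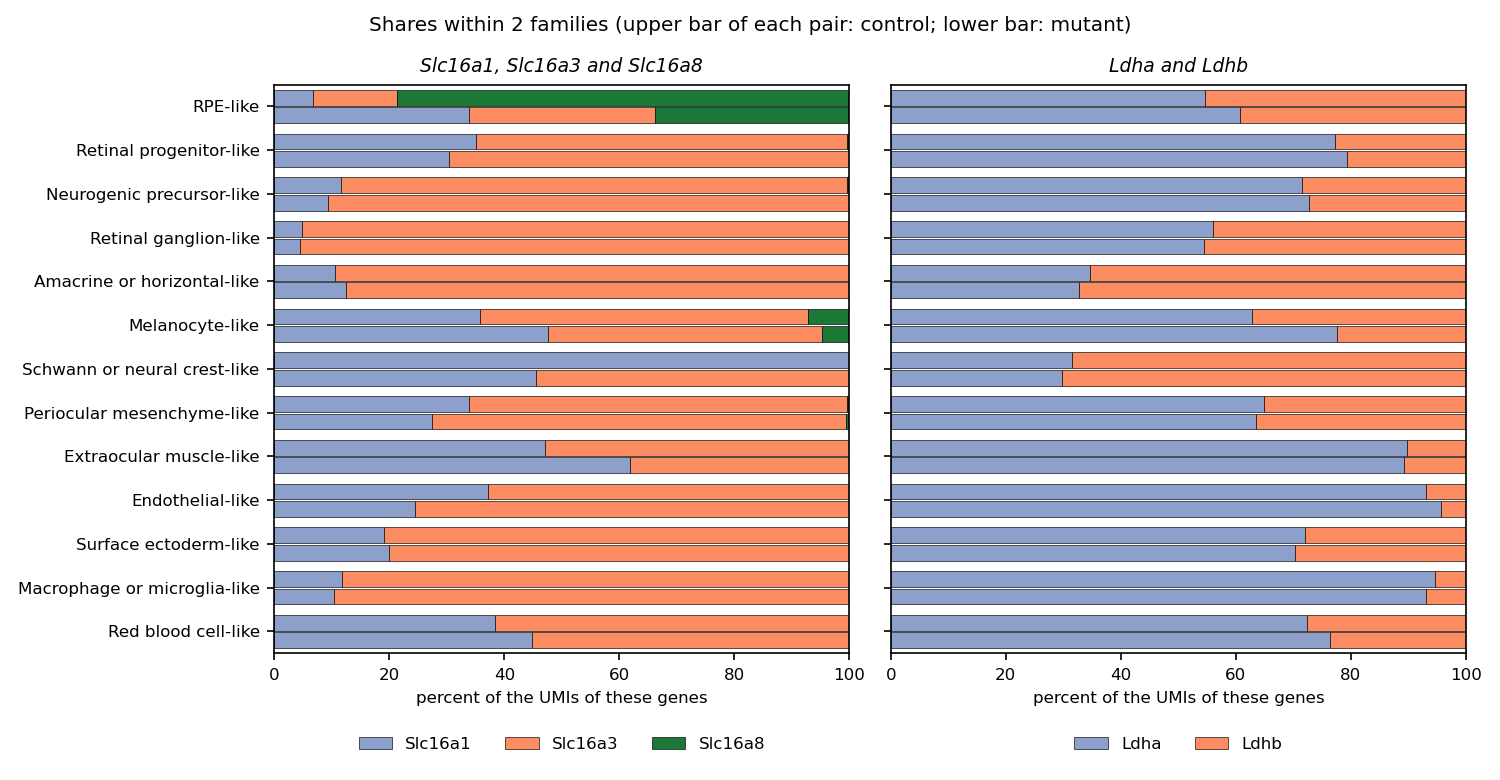
Shares of UMIs within the monocarboxylate transporters (left) and the lactate dehydrogenase subunits (right) for each of the 13 classes, in percent; the upper bar of each pair is the control and the lower bar the mutant library. Slc16a8 fills 78.7% of the control and 33.9% of the mutant RPE-like bar, and in every other class it holds at most 1 of 14 UMIs (7.14%).

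Bsg (chromosome 10, 79704491 to 79711969), the chaperone of the 3 transporters, was also highest in RPE-like cells. It stood there at 1669 CPM in the control (3476 UMIs) and 1311 CPM in the mutant (1958 UMIs), 1.97 times and 1.77 times the next class, Schwann or neural crest-like cells at 846 and 742 CPM, with intervals apart in both libraries. The remaining classes lay between 176 CPM in control red blood cell-like and 631 CPM in mutant surface ectoderm-like cells. With mitochondrial, haemoglobin and ribosomal protein genes left out of the totals, RPE-like cells stood at 2293 and 1843 and remained the highest class, but red blood cell-like cells came next at 1641 and 1475, so that their place at the bottom holds only on the scale with globin. On that scale the smaller red blood cell-like cluster, at 3243 in the control and 2530 in the mutant, lay above the RPE-like class. The log2 ratio in RPE-like cells was -0.35 (-0.43 to -0.27), that is, within 1.5-fold. It differed between subsets: in the deep subcluster Bsg was 1881 and 1365 CPM (log2 ratio -0.46, -0.55 to -0.37), and in the shallow one 852 and 1130 CPM (0.41, 0.20 to 0.62). In cells with at most 5% mitochondrial UMIs the ratio was 0.09 (-0.05 to 0.24). Between the 2 subclusters of the control, Bsg and Slc16a8 were both higher in the deep one.

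Ldha (chromosome 7, 46841475 to 46855627) encodes the subunit that favours making lactate from pyruvate, and it had its highest class level in macrophage or microglia-like cells, at 1741 CPM in the control and 1277 CPM in the mutant (log2 ratio -0.45, -0.53 to -0.37). In the mutant the interval overlapped that of the next class, melanocyte-like cells at 1231 CPM (1147 to 1320). Retinal progenitor-like cells held 1115 and 1214 CPM (log2 ratio 0.12, 0.10 to 0.15), neurogenic precursor-like cells 974 and 1096 CPM, ganglion-like cells 760 and 730 CPM and amacrine or horizontal-like cells 537 and 545 CPM. RPE-like cells came near the bottom, in place 11 of 13 in the control at 535 CPM (504 to 568) and place 9 in the mutant at 622 CPM (583 to 663), with a log2 ratio of 0.22 (0.09 to 0.34). Its pattern within the class was the opposite of that of Slc16a8 and Bsg: in the control 441 CPM in the deep subcluster and 901 CPM in the shallow one, in the mutant 544 and 884 CPM. By embryo sex the ratio was 0.76 (0.48 to 1.04) in female and -0.02 (-0.21 to 0.16) in male cells. The female cells were 45 in the control and 15 in the mutant, and the male cells 64 and 45.

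Ldhb (chromosome 6, 142490249 to 142507957), the subunit of enzymes that favour turning lactate back to pyruvate, was highest in amacrine or horizontal-like cells at 1012 CPM in the control and 1118 CPM in the mutant. Schwann or neural crest-like cells followed at 601 and 799 CPM and ganglion-like cells at 597 and 611 CPM. In control RPE-like cells it was 446 CPM (417 to 475) and in mutant RPE-like cells 402 CPM (371 to 436), with a log2 ratio of -0.15 whose interval just held 0 (-0.30 to 0.00). As a share of Ldha plus Ldhb UMIs, Ldhb was 45.4% in control (43.2 to 47.6) and 39.3% in mutant RPE-like cells (36.8 to 41.8), and these intervals did not overlap. In the deep subcluster the log2 ratio was -0.15 for Ldhb (-0.32 to 0.02) and 0.31 for Ldha (0.15 to 0.46). In the shallow one the ratios were close, at -0.08 (-0.45 to 0.28) and -0.03 (-0.25 to 0.19). The Ldhb share was 22.7% and 20.6% in progenitor-like, 44.0% and 45.5% in ganglion-like, and 65.3% and 67.2% in amacrine or horizontal-like cells. It was lowest in macrophage or microglia-like cells at 5.40% and 7.01% and in endothelial-like cells at 6.97% and 4.34%.

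Slc2a1 (chromosome 4, 119108711 to 119137983), the main glucose transporter of the blood-retina barrier, had its highest class level in RPE-like cells in both libraries, at 395 CPM in the control (369 to 423) and 357 CPM in the mutant (327 to 389). Retinal progenitor-like cells came second at 303 (295 to 311) and 312 CPM (304 to 320), below the RPE-like intervals. Neurogenic precursor-like cells held 247 and 234 CPM and amacrine or horizontal-like cells 243 and 242 CPM, while ganglion-like cells held only 60.2 and 45.9 CPM and periocular mesenchyme-like cells 30.3 and 22.3 CPM. The log2 ratio in RPE-like cells was -0.15 (-0.31 to 0.01). Across the 4 clusters of progenitor-like cells the highest control level was 388 CPM and the highest mutant level 390.5 CPM, in the same cluster. The interval in that cluster overlapped the RPE-like one in both libraries, and in the mutant its level was above the RPE-like level of 357 CPM. With mitochondrial, haemoglobin and ribosomal protein genes left out of the totals, that cluster stood at 576 and 586, above the RPE-like class in both libraries. On that scale the smaller red blood cell-like cluster stood at 663 in the control, also above it, and at 333 in the mutant. Among the 4 progenitor-like clusters the lowest CPM levels were in the one with a control median of 4553 UMIs. Its interval was 88.0 to 113 CPM in the control and its level 93.4 CPM in the mutant. In endothelial-like cells Slc2a1 was 198 and 147 CPM (log2 ratio -0.43, -0.67 to -0.20), and in periocular mesenchyme-like cells the ratio was -0.44 (-0.61 to -0.28).

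Slc2a3 (chromosome 6, 122727809 to 122801640), the high-affinity transporter known from neurons, was close to absent from the neurons measured here. Ganglion-like cells held 5 control and 7 mutant UMIs, and amacrine or horizontal-like cells 0 and 1. Surface ectoderm-like cells were highest at 37.5 CPM in the control (24.1 to 55.9) and 87.5 CPM in the mutant (64.9 to 115), and macrophage or microglia-like cells followed at 8.94 and 6.75 CPM. RPE-like cells held 11 and 9 UMIs (5.28 and 6.03 CPM). Of Slc2a1 plus Slc2a3 UMIs, Slc2a3 made up 1.32% in control and 1.66% in mutant RPE-like cells, against 27.0% (18.1 to 37.4) and 34.0% (26.4 to 42.3) in surface ectoderm-like and 18.6% and 19.0% in macrophage or microglia-like cells.

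**Figure D3:**
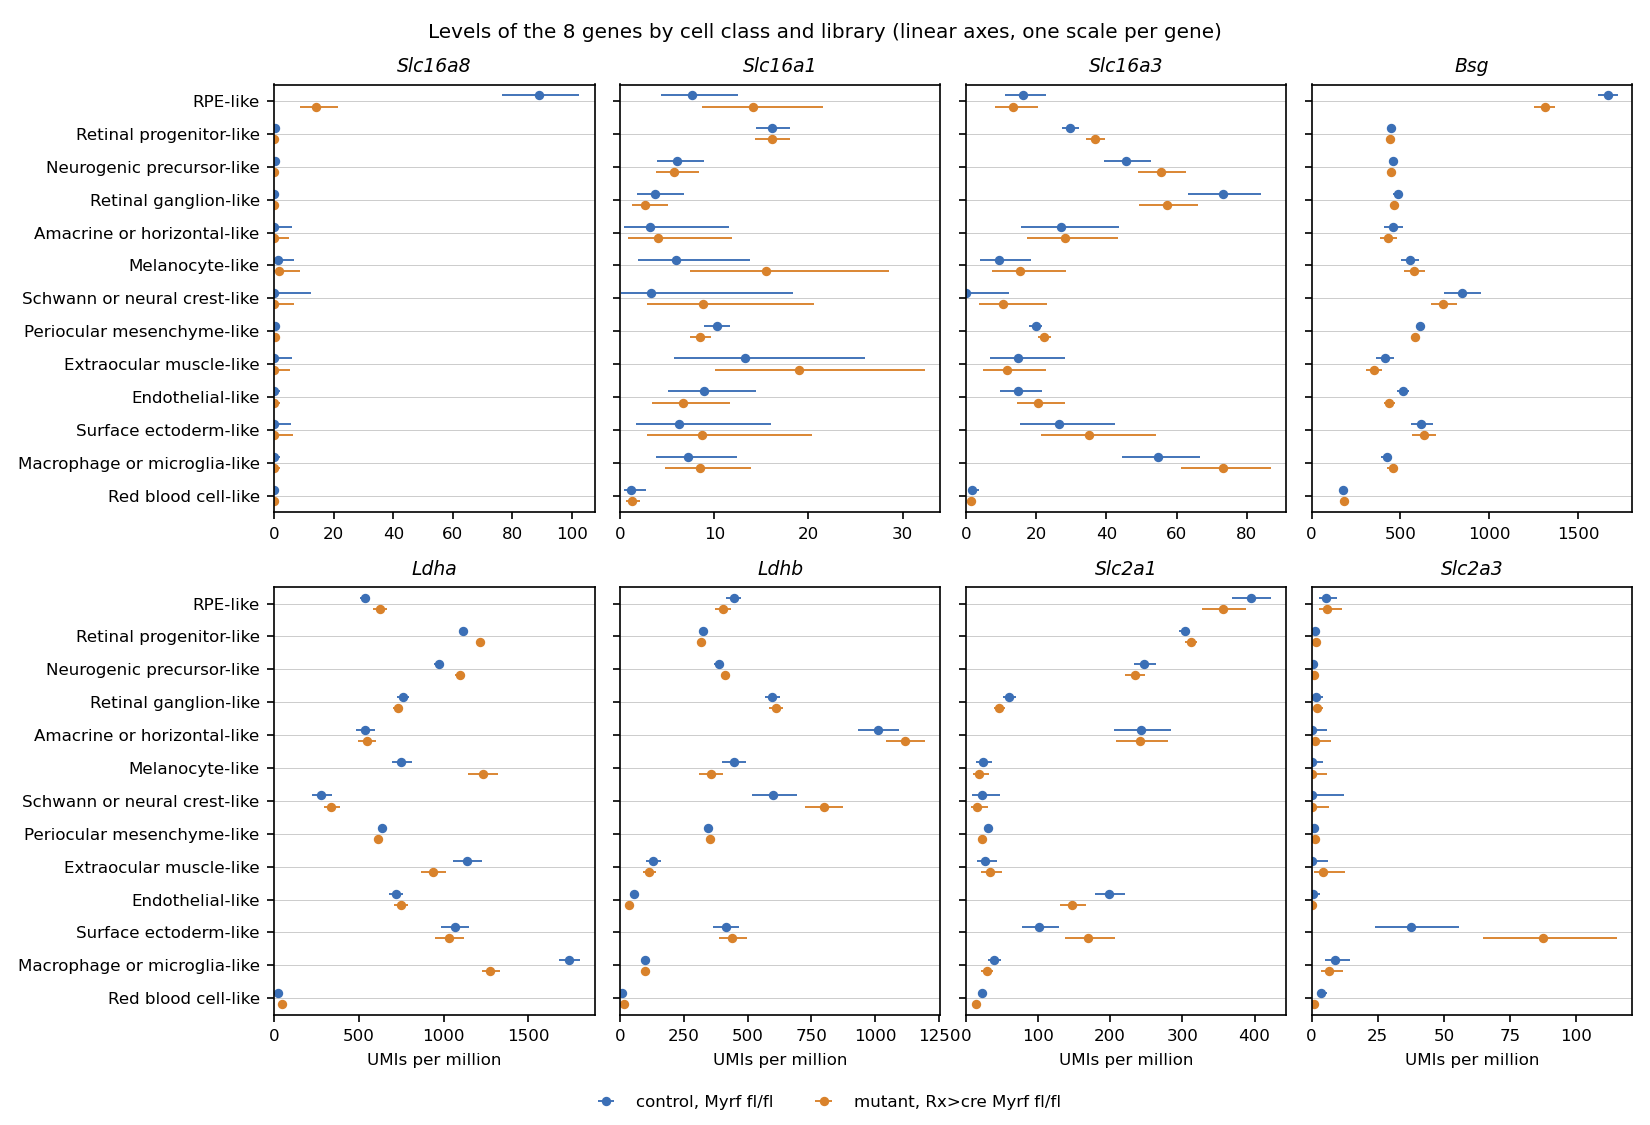
Level of each of the 8 genes in the 13 classes, in CPM on linear axes with a scale for each gene, for the control (blue) and the mutant (orange) library; lines are 95% counting intervals. Slc16a8, Bsg and Slc2a1 have their highest class levels in RPE-like cells in both libraries, at 88.8, 1669 and 395 CPM in the control, and Slc2a3 in surface ectoderm-like cells.

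Counted by a fixed size, 6 of the 8 genes had at least 50 UMIs in RPE-like cells. Of these, 1 (Slc16a8) was 1.5-fold or more lower in the mutant, where 7.51% of all 6909 genes were, and 0 were 1.5-fold or more higher, where 3.78% were. The median log2 ratio of the 6 was -0.20, beside -0.03 over all genes, of which 54.1% had a ratio below 0. Slc16a1 and Slc2a3 were under the minimum.

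Other genes of the pathway in RPE-like cells are set beside all 6909 genes of the class. Of all genes 54.1% were lower in the mutant, 7.51% were 1.5-fold or more lower and 3.78% were 1.5-fold or more higher. Every other pathway gene with at least 50 UMIs that passed 1.5-fold was lower. Of 13 other SLC16 and sodium-coupled monocarboxylate transporters only 2 had 50 UMIs, and both were lower in the mutant past that size. Slc16a9, which is not known as a lactate carrier, stood at 41.3 and 23.4 CPM (log2 ratio -0.79, -1.43 to -0.23). Of the 2 other chaperones Nptn was measured at -0.29 (-0.67 to 0.07), of 11 other glucose transporters only Slc2a4 at -0.13 (-0.85 to 0.53), and none of 3 other lactate dehydrogenases. Of 15 glycolysis genes 13 were measured, 6 lower and 7 higher, with a median of 0.12. The gene past 1.5-fold was Aldoc, an aldolase, at 17.8 and 8.70 CPM (-0.96, -2.06 to -0.08). The list summed to 7862 and 8078 CPM. Of 9 genes of pyruvate entry into mitochondria 8 were measured, 4 lower and 4 higher with a median of -0.04, and Pdk2, a kinase that holds back pyruvate dehydrogenase, was past 1.5-fold at 20.2 and 11.4 CPM (-0.78, -1.73 to 0.02). Of 18 hypoxia response genes 11 were measured, 8 lower and 3 higher with a median of -0.14, beside -0.03 over all genes. Bhlhe40, a transcriptional repressor, was past 1.5-fold at 22.1 and 13.4 CPM (-0.68, -1.56 to 0.06), and the list summed to 648 and 649 CPM.

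**Figure D4:**
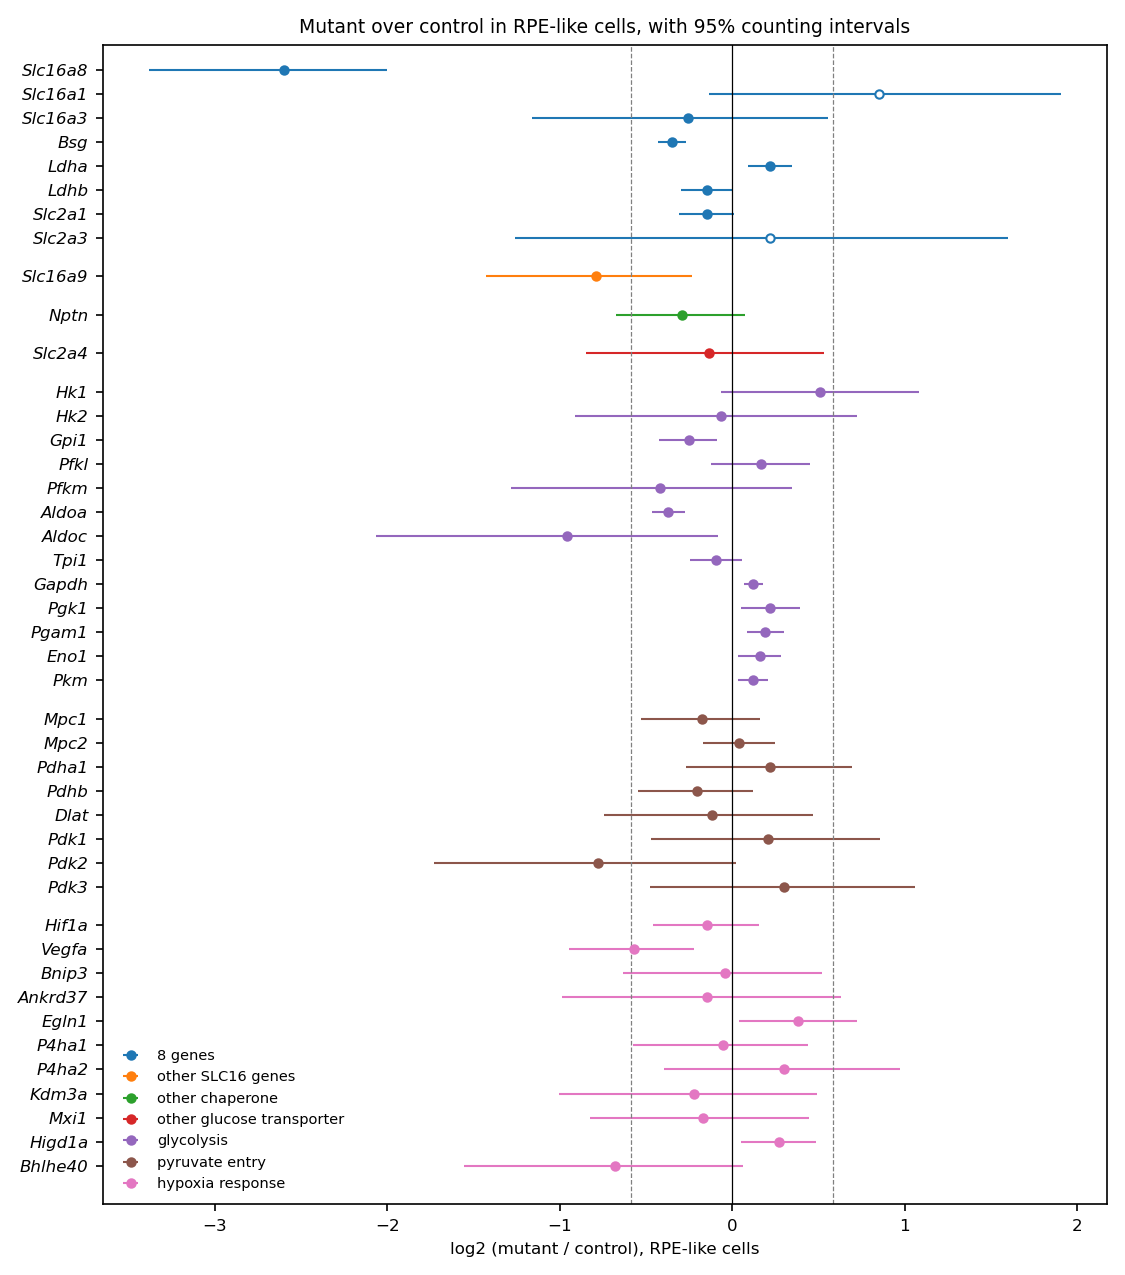
Log2 ratio of mutant to control in RPE-like cells for the 8 genes and for other pathway genes with at least 50 UMIs, with 95% counting intervals; open points mark genes under that minimum, and dashed lines mark 1.5-fold. Slc16a8 lies at -2.60, and the lowest of the others, Aldoc, at -0.96.

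Outside the RPE-like class, ratios past 1.5-fold lay in 4 classes. Surface ectoderm-like cells had 2 of 5 measured genes higher, Slc2a3 at a log2 ratio of 1.19 (0.49 to 1.99) and Slc2a1 at 102 and 170 CPM (0.73, 0.27 to 1.21), where 4.75% of all genes were. These rested on 24 and 50 Slc2a3 UMIs, of which 1 cell in each library held 29.2% and 36.0%. Without the cell of each library richest in the gene the ratios were 1.04 for Slc2a3 and 0.58 for Slc2a1, the latter no longer past 1.5-fold, and with at most 20000 UMIs per cell Slc2a1 was at 0.39. Melanocyte-like cells had Ldha higher at 751 and 1231 CPM (0.71, 0.56 to 0.87), where 3.02% of all genes were, in 34 and 25 cells. Endothelial-like cells had Ldhb lower at 53.8 and 33.9 CPM (-0.66, -1.15 to -0.19), where 4.49% of all genes were. With at most 20000 UMIs per cell the ratio was -1.43.

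Red blood cell-like cells had Ldha at 22.3 and 48.4 CPM (1.11, 0.80 to 1.45) and Ldhb at 8.52 and 14.9 CPM (0.78, 0.28 to 1.37) higher, where 34.8% of all genes were. With at most 20000 UMIs per cell Ldha was at 0.70. Ldhb was at 0.03 under that limit, no longer past 1.5-fold. In that class the median gene was higher by 0.41 in the mutant, and the mutant held 488 of its cells against 208. Slc2a1 was lower there, at 21.8 and 13.6 CPM (-0.69, -1.07 to -0.29), where 1.61% of all genes were. Its level differed between the 2 red blood cell-like clusters, at 60.2 and 36.6 CPM in the smaller and 8.31 and 7.60 CPM in the larger. Without the cell richest in Slc2a1 in each library its ratio was -0.39, and with at most 20000 UMIs per cell it was 0.40. In the 8 remaining classes the ratios of measured genes lay between -0.45 (Ldha in macrophage or microglia-like cells) and 0.49 (Slc2a3 in periocular mesenchyme-like cells).

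The genes whose levels over the 13 classes in both libraries (26 points) were most like those of a member were sought by Pearson's r of log2(CPM + 10) over 12373 genes. The points share their 2 libraries and depth, so r is a description. For Slc16a8 they were Myrf (r = 0.97), Vit (0.96) and Gsx2 (0.96). The points include both RPE-like values, so a like difference there follows from the choice, with Vit at 177 and 70.3 CPM (log2 ratio -1.32, -1.66 to -1.02) and Gsx2 at 106 and 50.9 CPM (-1.05, -1.46 to -0.68). For Slc16a1 they were Shmt1 (0.86), Rpp40 (0.83) and Chaf1b (0.82). For Slc16a3 they were Pfkfb3 (0.85), which makes the activator of phosphofructokinase, Pak1 (0.83) and Pgap1 (0.83), for Slc2a1 Cadps2 (0.87), the retinal field factor Lhx2 (0.86) and Adgrv1 (0.82), and for Slc2a3 the epithelial genes Cldn3 (0.94) and Krt7 (0.94) were among them.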

How the data were processed

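The authors pooled 3 samples per genotype, dissociated eye cups with papain, prepared 10x Genomics libraries and deposited raw UMI counts of called cells, not normalized. Per the labels, Cell Ranger 7.1.0 on mm10 and Seurat 4.1.1 were used, and the matrix headers carry another Cell Ranger software number. Whether intronic reads were counted is not given in the sources used here. Cells needed at least 200 genes and at most 15% mitochondrial UMIs. Scrublet in scanpy 1.11.5, with an expected rate of 5%, marked 51 control and 74 mutant doublets (0.924% and 1.16%), which were removed. The study's limit of 2000 UMIs per cell would have kept 1190 control and 1096 mutant cells, so it was only an alternative. Seurat 5.3.0 under R 4.3.3 integrated the libraries (2000 variable features less the genes reported, 30 components) and clustered them at resolution 0.8. Clusters were named X-like where at least 3 markers were over 2-fold and their mean log2 fold was at least 0.5, a rule chosen with the clusters in view. A cluster whose median depth was under 1/3 of that of its libraries, with none of the class's markers among its top 10 genes, stayed unnamed, which kept out 16 control and 13 mutant cells that were otherwise closest to RPE and were led by Pf4, and the subclusters come from resolution 1.6.

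Sums, CPM and ratios were computed in Python 3.11.15 with scipy 1.17.1. Log2 ratios had 1 UMI added to each sum, a gene was counted past 1.5-fold only if its UMIs over both libraries reached 50, and the ratio was tested on simulated data. All 8 genes were described in every named class with at least 20 cells in each library. Of other pathway genes, those past 1.5-fold in RPE-like cells are named, at most 4 a list in each direction. Genes named as alike had at least 200 UMIs, mitochondrial and haemoglobin genes left out. Some genes that these rules select are not reported here. The sex split and the mitochondrial split are given with the results above, and the closing section sums up these and the other alternatives. The 8 genes, the lists and the markers were chosen with earlier results of these data known. Ldha has 2 annotated pseudogenes named after it in GENCODE M21, and reads shared with such copies could not be traced. Slc16a1, Slc2a1 and Slc2a3 each overlap at least 1 other annotated gene on their strand, and Slc16a8 and Slc2a1 on the other strand, so reads there may be shared.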

Additional observations from a re-analysis of the deposited data

How the results depend on the processing

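Slc16a8 stayed lower in mutant RPE-like cells under all 19 alternatives, with log2 ratios from -3.61 to -0.82. It moved beyond the counting interval of the reported value under 3: -1.35 with at most 2000 UMIs per cell (3 against 0 UMIs), -0.82 with at most 5% mitochondrial UMIs and -3.61 in female cells (15 mutant cells). In these 3 settings 0 members were counted 1.5-fold or more lower, because Slc16a8 then had fewer than the 50 UMIs required. With at least 20 UMIs per gene Slc16a1 was counted higher (log2 ratio 0.85, -0.14 to 1.91), and in female cells Ldha was (0.76, 0.48 to 1.04). The share of all genes past 1.5-fold under these alternatives is not given here, so the counts of members under them have no background. The causes of the moved ratios were not tested. The sign changed for Slc16a1 under 1, Slc16a3 under 3, Bsg under 2, Ldha under 2, Ldhb under 1 and Slc2a3 under 3 of the 19, and for Slc2a1 under 0. In the other classes 266 of 285 repeats lay inside the reported interval, 18 outside, and Slc2a1 in red blood cell-like cells turned to 0.40 with at most 20000 UMIs per cell, which kept 85 control and 178 mutant cells. With that limit Ldhb in endothelial-like cells was -1.43 and in red blood cell-like cells 0.03. With mitochondrial, haemoglobin and ribosomal protein genes left out of the totals, 9 of the 16 levels in RPE-like cells lay outside their reported interval. Thinned to 1500 or 6000 UMIs, 20 of 32 shares of cells did. Leaving out barcodes that both libraries hold, chosen after seeing the data, gave -2.61 for Slc16a8. Thinned to 1500 UMIs, the share of RPE-like cells with a Slc16a8 UMI was 15.6% in the control and 0.990% in the mutant, and thinned to 6000 UMIs 33.6% and 7.04%. No paired analysis was possible because each genotype is 1 library, and differences between embryos or library preparations cannot be told apart from genotype.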

Other observations

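In melanocyte-like cells, the neural crest pigment cells that lie beside the RPE, the glycolysis genes had higher levels in the mutant. Of 15 genes 9 had at least 50 UMIs, all 9 had higher levels in the mutant, and 5 passed 1.5-fold, where 3.02% of all genes in the class did. The median log2 ratio was 0.60, beside -0.01 over all genes, and the list summed to 5586 CPM in the control and 7923 CPM in the mutant. Aldoa stood at 502 and 841 CPM (0.74, 0.56 to 0.93), Tpi1 at 294 and 467 CPM (0.67, 0.42 to 0.92) and Pgk1 at 422 and 652 CPM (0.63, 0.42 to 0.84), and the class and these genes were chosen after their values were seen. Over all genes of the class 50.9% were lower. Glycolysis genes leaned to 1 side in some other classes too, at smaller medians, but not in all. In periocular mesenchyme-like cells 7 were lower and 7 higher (median 0.003), and in RPE-like cells 6 and 7 (0.12). Amacrine or horizontal-like cells had 5 lower and 4 higher (-0.02), and retinal ganglion-like cells 4 and 8 (0.02). In Schwann or neural crest-like cells 8 of 8 measured were higher (median 0.26), where 57.4% of all genes were lower, and in endothelial-like cells 10 of 10 (0.11), where 57.7% were lower. In neurogenic precursor-like cells 11 of 12 were higher (0.11), where 56.4% of all genes were lower. In macrophage or microglia-like cells 11 of 12 were lower (-0.15), where 52.6% of all genes were. In extraocular muscle-like cells 7 of 9 were lower (-0.22), where 53.7% of all genes were. In surface ectoderm-like cells 7 of 9 were higher (0.13), where 50.9% of all genes were lower, and in retinal progenitor-like cells 10 of 13 (0.07), where 56.3% were lower. In red blood cell-like cells 10 of 10 were higher (0.55, beside 0.41 over all genes), but there only 18.7% of all genes were lower. The melanocyte-like class held 34 control and 25 mutant cells, and no test was possible with 1 library per genotype.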
